A study of Mus musculus with 49 samples.

Results

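Pro-B cells grown from mouse bone marrow were set against immature B cells from the same kind of culture, with 3 microarrays in each group, which is 6 of the 49 samples of the series and 6 of the 37 that were hybridized to U74Av2 arrays. The arrays were chosen by their labels alone. The B6-M- arrays hold B220+ IgM-negative cells sorted after 5 d of IL-7 culture (16 ng/ml) of marrow from nontransgenic C57BL/6 mice (C57Bl/6J in the study's text). The study names them pro-B cells, and this gate does not exclude pre-B cells. The GFPneg arrays hold B cells of HEL-Ig/Rag2-GFP mice, which carry a conventional transgenic B cell receptor (BCR) against hen egg lysozyme and a reporter that places green fluorescent protein (GFP) under control of Rag2. Their marrow was also cultured for 5 d with IL-7, then washed and held for 24 h in medium with the carrier alone, and IgM-positive, GFP-negative cells were sorted. Mice were generally 4 to 8 weeks old, neither group received interferon (IFN), and 2 or 3 sorts stood behind each group, so that the spread between arrays may be partly technical. Developmental stage, the Ig transgene, the last day of culture and the presence of IL-7 up to the sort all changed together between these groups, and their shares cannot be told apart. The strain and the sex of the HEL-Ig/Rag2-GFP mice are not given in the sources used here. Beside them stand a second cultured immature population, Ctrl-Mhi (4 arrays of IgM-high cells of mice with knock-in B1-8 heavy and 3-83κ light chains, after 5 d in IL-7 and 2 d without IL-7 but with IFNαβ), and fresh Balb/c marrow, namely FxD pre-B cells (B220+CD43-IgM-) and FxE immature B cells (B220+IgM+IgD-), with 3 arrays each.

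B cell development in marrow runs from pro-B cells, which rearrange the Ig heavy chain locus with the RAG recombinase and depend on IL-7, through pre-B cells, which carry a heavy chain paired with the surrogate light chain, to immature B cells, which display a complete IgM receptor and have switched recombination off when the receptor is innocuous. IL-7 signals through JAK kinases and the transcription factor STAT5. On the way to immaturity, B cells take up the surface receptors, inhibitory phosphatases and MHC class II molecules with which they later see antigen and T cells.

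B lineage transcripts and most pro-B transcripts fitted the labels, and those of the immature stage were mixed across probe sets. Ms4a1 and Cd22 were lower in B6-M- cells. Of 16 probe sets annotated to Ighm, the μ heavy chain, 6 were called higher and 1 lower. The one called lower is not a family probe set. The one with the largest rise holds probes shared by a gene family, so its rise need not be one of μ RNA. GFPneg cells were gated on absence of a Rag2 reporter, so Rag1 and Rag2 are no independent check of the label. The B lineage genes Cd79a (a signalling chain of the BCR), Ebf1 and Pax5 (transcription factors of B cell commitment) were abundant on every array. Signals, in arbitrary units after scaling of each array, were 54885, 47040.1 and 70120 in B6-M- cells, against 71106, 66028 and 58687 in GFPneg cells for Cd79a, and those of Ebf1 were 6456, 6088 and 7027 in B6-M- cells, against 6454, 7461 and 6283 in GFPneg cells. Both genes overlapped between the groups. Of the pro-B markers, Rag1, Rag2, Dntt, Igll1, Vpreb1 and Il7r were higher in B6-M- cells and Kit, with signals of 284, 432 and 331 in B6-M- cells, against 168, 140 and 77.4 in GFPneg cells, missed the threshold (log2 difference 1.49 ± 0.34, adjusted p = 0.077). The 6 arrays were alike in overall brightness, with median signals between 467.3 and 512.5 and 3.58 to 6.19% of probe sets at or below the floor of 20 units, and they correlated at 0.952 to 0.96 within and 0.924 to 0.941 between groups across all probe sets.

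Of 9977 probe sets, 503 (5.04%) were called different between B6-M- and GFPneg cells, 264 higher (2.65%, 212 genes) and 239 lower (2.4%, 195 genes) in B6-M- cells. A call means an adjusted p under 0.05 in limma's moderated test of log2 signals, with Benjamini-Hochberg adjustment over all probe sets, and every log2 difference is B6-M- minus GFPneg with its standard error (n = 3 arrays each). The difference was at least 2-fold for 216 of the higher and 186 of the lower probe sets. The 2 groups did not overlap at any of the 503 called probe sets, against 26.7% of all probe sets. By the criteria used in the methods (an unadjusted p under 0.01, a 2-fold difference of means and a difference of over 200 units), 214 probe sets passed, 116 higher and 98 lower. The number of limma calls depended on each of the 6 arrays: it was 232, 166 and 235 without the first, the second and the third B6-M- array and 282, 209 and 255 without the first, the second and the third GFPneg array. Since RNA was taken from bulk sorts, fewer cells that express a gene cannot be told apart from less of its RNA per cell. For each list of genes below, 1 probe set stood for each gene, and the list's median may be read against the median of all probe sets, -0.05 on the log2 scale. The number of members called may likewise be read against the 2.65% of all probe sets called higher and the 2.4% called lower. For 6 list genes the brightest probe set was not called and a dimmer one was: Blnk, Igfbp4 and Col3a1, described below, Spib (-1.04), Tfrc (0.97) and Cd83 (-3.35). For Bcl2l1, Ikzf1, Shmt1, Vav1 and Xiap the called probe set is given, and 1 or 2 others of the gene were not called.

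Both subunits of the V(D)J recombinase, terminal transferase and 1 of the Ku subunits were higher in B6-M- cells. In the list of 13 genes of recombination and end joining, 4 were called higher and none lower, with a median log2 difference of 0.12. Rag1, a catalytic subunit of the recombinase, gave 14376, 14463 and 12017 in B6-M- cells, against 245, 253 and 212 in GFPneg cells, a 57.6-fold difference of means (5.85 ± 0.15, adjusted p = 0.000461). Rag2, its partner, gave 1911, 1452 and 1224 in B6-M- cells, against 83.6, 40.6 and 143 in GFPneg cells (17.2-fold, 4.26 ± 0.49, adjusted p = 0.011). GFPneg cells were sorted for absence of a Rag2-driven reporter, so both Rag levels stand close to what the gate selected. Dntt, the terminal transferase (TdT) that adds untemplated nucleotides at heavy chain joints, gave 11563, 16755 and 17172 in B6-M- cells, against 161, 180.3 and 234 in GFPneg cells, so that the lowest B6-M- array exceeded the highest GFPneg array many times over (79.0-fold, 6.30 ± 0.24, adjusted p = 0.00091). Xrcc6 encodes Ku70, which binds DNA ends, and its signals were 8523, 9649.6 and 8641 in B6-M- cells, against 2339.9, 1843 and 2401 in GFPneg cells (4.07-fold, 2.03 ± 0.16, adjusted p = 0.00436). The other 9 genes, among them the kinases Atm (-0.47) and Prkdc (-0.36) and the second Ku subunit Xrcc5 (0.45), had log2 differences between -0.58 and 0.51, none of them called. The call for Rag2 was lost without the first or second B6-M- array (adjusted p up to 0.0598).

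Both measured surrogate light chain genes that pair with the heavy chain in the pre-BCR were higher in B6-M- cells. Vpreb1 gave 33754, 40295 and 53537 in B6-M- cells, against 3205, 4083 and 5023 in GFPneg cells (10.4-fold, 3.37 ± 0.25, adjusted p = 0.00398). Igll1, which encodes λ5, gave 27685, 36369 and 47806 in B6-M- cells, against 4073, 4761 and 5017 in GFPneg cells (8.08-fold, 2.98 ± 0.24, adjusted p = 0.00436). For both genes the 3 B6-M- arrays spread widely among themselves and lay far above the GFPneg arrays. In the list of 6 genes of the surrogate light chain and pre-BCR, no other member was called at its brightest probe set: the adaptor Blnk differed by 0.70 ± 0.14 there (adjusted p = 0.0509) and by 0.99 ± 0.15 at a dimmer one that was called (adjusted p = 0.0271), the kinase Syk by 0.22, Cd79a by -0.20 and Vpreb3, a chaperone-like relative that is not part of the surrogate light chain, by -0.32.

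Of 21 surface receptors of progenitor cells, 4 were called higher in B6-M- cells and none lower (median 0.61). They were Enpep, the aminopeptidase known as BP-1, with signals of 8326, 15891 and 11065 in B6-M- cells, against 1186, 2724 and 2218 in GFPneg cells (2.56 ± 0.40, adjusted p = 0.0278), the stromal antigen Bst1 (BP-3) with 2108, 2392 and 1512 in B6-M- cells, against 417, 638 and 680 in GFPneg cells (1.80 ± 0.28, adjusted p = 0.0266), the amino acid transporter subunit Slc7a5 (1.45 ± 0.18, adjusted p = 0.0147) and Il7r. Il7r, the receptor subunit for the growth factor of the culture, gave 8061, 7124 and 6479.9 in B6-M- cells, against 3139, 2642 and 3816 in GFPneg cells (1.19 ± 0.19, adjusted p = 0.0296). The groups were apart for each of these 4, but these calls were fragile. Those for Enpep and Bst1 were lost without any 1 of the 6 arrays (adjusted p up to 0.101 and 0.102), that for Il7r was kept only without the third GFPneg array (up to 0.109) and that for Slc7a5 was lost without any B6-M- array or the third GFPneg array (up to 0.0638). Spn, which encodes CD43, one of the antigens by which pro-B cells are sorted, gave 594, 505 and 894 in B6-M- cells, against 315, 438 and 322 in GFPneg cells, with no overlap but no call (0.87 ± 0.27, adjusted p = 0.161).

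Transcription factors moved in both directions. Among 15 factors of progenitors, 3 were called higher and 1 lower (median 0.31). Sox4, needed for the survival of B cell progenitors, gave 17891, 15502 and 14249.6 in B6-M- cells, against 2080.4, 2353 and 3546 in GFPneg cells (5.97-fold, 2.61 ± 0.24, adjusted p = 0.0063). Lef1, a nuclear partner of β-catenin in pro-B cells, gave 11644, 12428 and 14056 in B6-M- cells, against 2531, 3251 and 2496 in GFPneg cells (4.61-fold, 2.21 ± 0.17, adjusted p = 0.00401). For both of these the call held whichever array was left out. Myb, a factor required in early lymphoid cells, differed less, with 30749, 32379 and 33283 in B6-M- cells, against 16487, 18290.5 and 19673 in GFPneg cells (0.83 ± 0.13, adjusted p = 0.0296), and Lyl1 was lower (-0.94 ± 0.13, adjusted p = 0.0218). The calls for Myb and Lyl1 were lost without any 1 of the 6 arrays, with adjusted p up to 0.109 and 0.085.

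In the list of 22 B lineage transcription factors, 1 was called higher, 6 lower and 15 were not called, with a median of -0.58. The lower ones were Bcl6, the repressor of germinal centre cells, with 627, 635 and 375 in B6-M- cells, against 1889, 2359 and 2264 in GFPneg cells (3.98-fold, -2.03 ± 0.25, adjusted p = 0.0146), Pou2f2 (Oct-2) with 868, 681 and 909 in B6-M- cells, against 2247, 2634 and 3414 in GFPneg cells (3.37-fold, -1.74 ± 0.22, adjusted p = 0.014), Mef2c (-1.40 ± 0.22, adjusted p = 0.0271), Irf8 (-1.07 ± 0.16, adjusted p = 0.0244), Ikzf1 (-0.80 ± 0.13, adjusted p = 0.0346) and Spi1, which encodes PU.1 (-0.79 ± 0.15, adjusted p = 0.0473). Irf4, which acts in pre-B cells and again in plasma cells, went the other way, with 18695, 15438 and 17156 in B6-M- cells, against 6055, 5095 and 6349 in GFPneg cells (2.93-fold, 1.55 ± 0.15, adjusted p = 0.00742), and its call held in every refit without 1 array. The calls for Ikzf1 and Spi1 were lost without any 1 array (adjusted p up to 0.122 and 0.135), and that for Bcl6 without the second B6-M-, second GFPneg or the third GFPneg array (up to 0.0687). Pou2f2 kept its call only without the first or the third GFPneg array (up to 0.0624 otherwise), Irf8 only without the first GFPneg array (up to 0.0982) and Mef2c only without the third B6-M- array (up to 0.108). Ebf1 (-0.04), Pax5 (-0.20) and Tcf3, which encodes E2A (0.28), were not called.

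The targets of the IL-7 receptor and STAT5 formed the list with the most calls in the upward direction outside the Ig genes. Of 19 members, 8 were higher in B6-M- cells and none lower (median 0.88). Among the feedback inhibitors of cytokine receptors, Socs1 gave 5811, 5079.6 and 7678 in B6-M- cells, against 834, 878 and 854 in GFPneg cells (7.23-fold, 2.83 ± 0.19, adjusted p = 0.00297). Socs2 gave 9099.7, 11836 and 15592 in B6-M- cells, against 2051, 2219 and 2393 in GFPneg cells (5.48-fold, 2.42 ± 0.23, adjusted p = 0.0066). For both of these inhibitors the GFPneg arrays lay close together and far below the B6-M- arrays. Socs3, with 513, 681 and 801 in B6-M- cells, against 94.9, 116 and 185 in GFPneg cells (2.37 ± 0.31, adjusted p = 0.016), and Cish, with 1510.4, 1626 and 2098 in B6-M- cells, against 537, 667 and 355 in GFPneg cells (1.78 ± 0.28, adjusted p = 0.0288), are inhibitors of the same family. Pim1, a survival kinase, gave 24319, 21699 and 26811 in B6-M- cells, against 8639, 7454 and 8070.4 in GFPneg cells (3.01-fold, 1.59 ± 0.14, adjusted p = 0.00603). Myc, the growth regulator, had the largest log2 difference of this list, with 593, 953 and 741 in B6-M- cells, against 25.8, 41.2 and 63.3 in GFPneg cells (17.6-fold, 4.20 ± 0.38, adjusted p = 0.00596, 2.90 with a floor of 100). Ccnd2, the cyclin that brings G1 cells toward S phase, gave 2836, 3911 and 4459 in B6-M- cells, against 568, 1148 and 720.3 in GFPneg cells (4.60-fold, 2.24 ± 0.32, adjusted p = 0.0218). The eighth gene was Il7r itself, and the signalling components Jak1 (0.12), Jak3 (-0.42), Stat5a (-0.27) and Stat5b (-0.51) were not called. The calls for Socs1, Socs2, Pim1 and Myc held without any 1 array. Those for Socs3 (lost without the second or the third B6-M- or the first or second GFPneg array, adjusted p up to 0.0792), Cish (lost without any, up to 0.106) and Ccnd2 (kept only without the second GFPneg array, up to 0.0969) did not. B6-M- cells were sorted straight from IL-7 and GFPneg cells after 24 h without it.

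**Figure D1:**
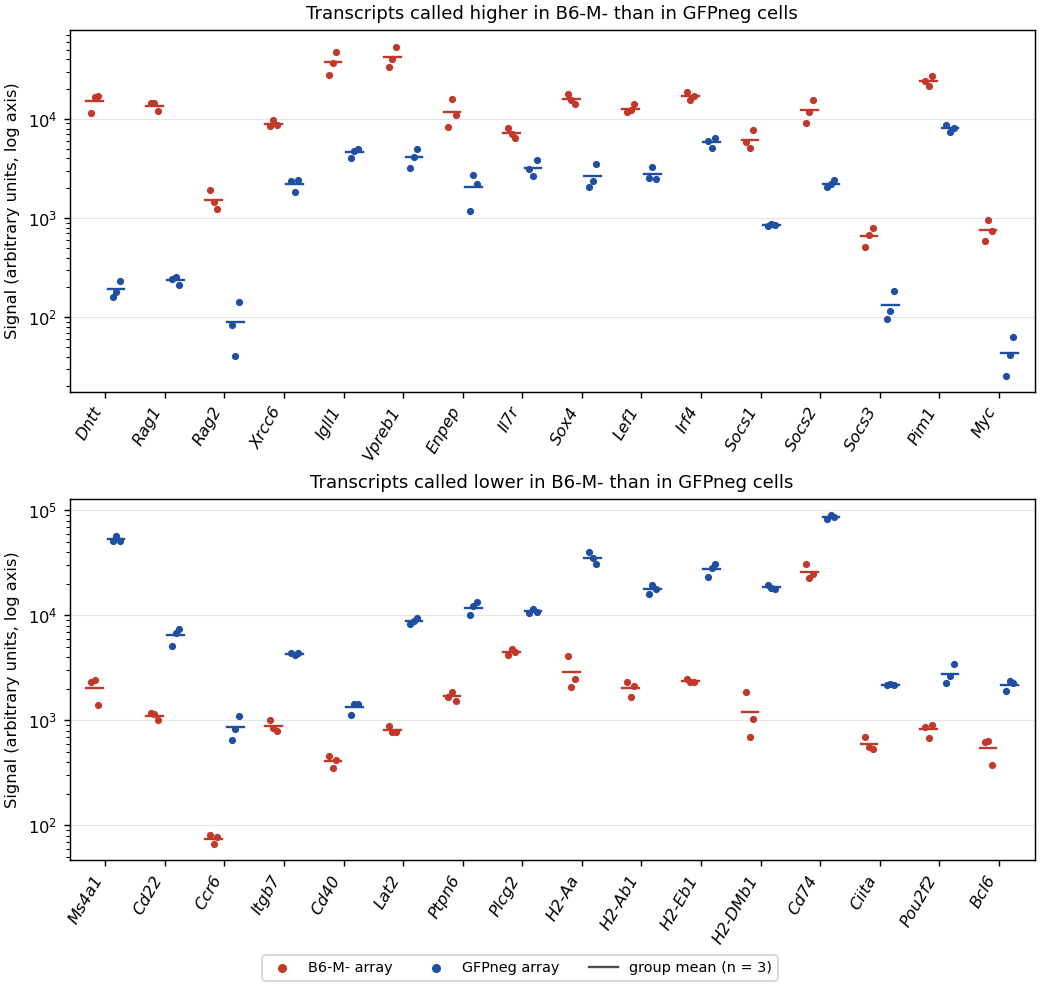
Signal of 16 transcripts called higher (upper panel) and 16 called lower (lower panel) in B6-M- than in GFPneg cells, in arbitrary units on log axes, with 1 point per array and a line at the mean of the 3 arrays of a group. At each of the 32 transcripts the red B6-M- points and the blue GFPneg points do not overlap, and the gap is widest for Dntt and Rag1 above and for Ms4a1 below.

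Of 33 surface molecules of immature and mature B cells, 14 were called lower in B6-M- cells, 1 higher and 18 were not called, with a median of -1.05. Ms4a1, which encodes CD20, had the largest difference of the list. Its 2 probe sets gave 2343, 2421 and 1396 in B6-M- cells, against 50759.9, 56619 and 51158 in GFPneg cells (25.7-fold, -4.73 ± 0.25, adjusted p = 0.00158), and 1668, 1886 and 980.5 in B6-M- cells, against 36105, 43150.4 and 40161 in GFPneg cells (26.3-fold, -4.77 ± 0.28, adjusted p = 0.00196). Cd22, an inhibitory co-receptor of the BCR that binds sialic acid, gave 1168, 1152 and 999 in B6-M- cells, against 5121, 6847 and 7498 in GFPneg cells (5.86-fold, -2.54 ± 0.19, adjusted p = 0.00387). Ccr6, a chemokine receptor, gave 81.3, 66.5 and 77.0 in B6-M- cells, against 644, 834 and 1109 in GFPneg cells, the B6-M- signals lying near the dim end of the array (11.5-fold, -3.49 ± 0.23, adjusted p = 0.00313). The integrin chain Itgb7 gave 1016, 843 and 800.1 in B6-M- cells, against 4345, 4200.3 and 4406 in GFPneg cells (4.87-fold, -2.29 ± 0.14, adjusted p = 0.00257). Cd40, the receptor for T cell help, gave 459, 355 and 418 in B6-M- cells, against 1136, 1433 and 1441 in GFPneg cells (3.25-fold, -1.70 ± 0.17, adjusted p = 0.00805). All of these calls held without any 1 array. Cd52 (-1.97 ± 0.21, adjusted p = 0.00935) and the inhibitory receptor Cd72 (-1.52 ± 0.17, adjusted p = 0.0101) lost theirs without the second B6-M- array (adjusted p 0.0503 and 0.0556), and the inhibitory Fc receptor Fcgr2b (-1.05 ± 0.15, adjusted p = 0.0235) lost its call without any (up to 0.0991).

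Not every marker of maturing B cells followed. Fcer2a (CD23), an antigen of mature follicular B cells, was dim in both groups, with 72.1, 162 and 28.9 in B6-M- cells, against 223, 66.2 and 133 in GFPneg cells, and overlapped (-0.85 ± 0.75, adjusted p = 0.612). Cxcr5, the chemokine receptor that draws B cells to follicles, gave 1402, 1209.5 and 1160.3 in B6-M- cells, against 844, 1112 and 1230.5 in GFPneg cells and overlapped too (0.26 ± 0.19, adjusted p = 0.544). The tetraspanin Cd9 was the member called higher, with 1733, 1632 and 1393 in B6-M- cells, against 607, 321 and 376 in GFPneg cells (3.65-fold, 1.92 ± 0.27, adjusted p = 0.0207), a call kept only without the first GFPneg array (adjusted p up to 0.0935 otherwise).

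MHC class II had the highest share of called genes of all lists. Of its 14 genes, 12 were called lower in B6-M- cells and none higher, with a median of -2.09, whereas none of 16 genes of MHC class I was called by limma or met the methods' criteria, or had an unadjusted p under 0.05, and their median was -0.03, with differences from -0.52 to 0.23. These values are those of each gene's brightest probe set. The class I gene H2-K1 had 3 probe sets, none of them called, with differences from -2.33 to 0.18. Class II transcription depends on an upstream block of S, X and Y boxes, of which the Y box holds the sequence CCAAT, and on the coactivator CIITA, which B cells make from their own promoter. To show what stands before 4 of the class II genes called lower, the stretch from position -150 to -21 of 1 start site of each is printed here. It comes from the RefSeq promoters of assembly GRCm38.p6, in the sense of the gene. The genes were chosen for printing after their values had been seen, and the capitals mark CCAAT on either strand (ATTGG on the strand shown).
H2-Aa (chr17:34287844-34287973, minus strand): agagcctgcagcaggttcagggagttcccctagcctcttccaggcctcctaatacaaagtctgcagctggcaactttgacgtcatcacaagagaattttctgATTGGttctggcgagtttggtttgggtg
H2-Eb1 (chr17:34305717-34305846, plus strand): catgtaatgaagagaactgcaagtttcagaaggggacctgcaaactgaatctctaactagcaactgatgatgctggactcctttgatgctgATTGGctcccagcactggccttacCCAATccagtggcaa
H2-DMb1 (chr17:34153041-34153170, plus strand): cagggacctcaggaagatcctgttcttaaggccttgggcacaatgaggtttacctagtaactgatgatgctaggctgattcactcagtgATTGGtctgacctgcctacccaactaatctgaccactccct
H2-DMb2 (chr17:34145099-34145228, plus strand): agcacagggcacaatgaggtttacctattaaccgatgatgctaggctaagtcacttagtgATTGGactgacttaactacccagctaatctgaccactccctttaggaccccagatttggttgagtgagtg
The match began at -48 in H2-Aa, at -59 and -35 in H2-Eb1, at -61 in H2-DMb1 and at -90 in H2-DMb2. Of 13 class II genes looked up, 9 had an entry and 8 of these held CCAAT somewhere in the 300 bases around a start, against 37.4% of all 32851 promoters of that length. A gene was counted if any of its starts held CCAAT (a start of H2-DMa did not), while the 37.4% counts single promoters. A match of 5 letters is a description of the sequence and not a binding site.

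Of the 4 classical class II chains, 3 fell. H2-Aa, the α chain of I-A, gave 4094, 2100.3 and 2476 in B6-M- cells, against 39918, 34925 and 31081 in GFPneg cells (12.2-fold, -3.66 ± 0.28, adjusted p = 0.00427). H2-Ab1, the β chain of I-A, gave 2307, 1669 and 2111 in B6-M- cells, against 15967, 19569 and 17885 in GFPneg cells (8.78-fold, -3.14 ± 0.18, adjusted p = 0.00192). H2-Eb1, the β chain of I-E, gave 2470.3, 2307 and 2308 in B6-M- cells, against 23286, 28538 and 31000.4 in GFPneg cells (11.7-fold, -3.54 ± 0.16, adjusted p = 0.00116). The lowest GFPneg signal was several times the highest B6-M- signal for each of these chains. H2-Ea, the α chain of I-E, which C57BL/6 mice do not make, had 86.7, 32.9 and 28.6 in B6-M- cells, against 718, 399 and 15.9 in GFPneg cells, with 1 GFPneg array below the floor, and was not called (-2.04 ± 1.43, adjusted p = 0.515). H2-Eb2 was near the floor in B6-M- cells, with 23.2, 11.6 and 25.9 in B6-M- cells, against 395, 446 and 274 in GFPneg cells (-3.99 ± 0.23, adjusted p = 0.00194), and the size of its difference depends on the floor (-1.87 with a floor of 100).

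The helpers of peptide loading were lower as well. H2-DMb1 and H2-DMb2, β chains of the peptide exchanger H2-M, gave 1858, 689.6 and 1038 in B6-M- cells, against 19376, 18423 and 18021 in GFPneg cells for H2-DMb1 (15.6-fold, -4.08 ± 0.37, adjusted p = 0.00603), and 1059.6, 653 and 549 in B6-M- cells, against 8633, 9772 and 8934 in GFPneg cells for H2-DMb2 (12.1-fold, -3.65 ± 0.27, adjusted p = 0.0038). Its α chain H2-DMa gave 3854, 2978 and 3085 in B6-M- cells, against 14262, 14719 and 14278 in GFPneg cells (4.36-fold, -2.13 ± 0.15, adjusted p = 0.00329). Cd74, the invariant chain, gave 30654, 22566 and 24993 in B6-M- cells, against 82860.4, 90011 and 85723 in GFPneg cells (3.31-fold, -1.74 ± 0.16, adjusted p = 0.00626). Cd74 was bright in B6-M- cells too, while every array lay below every GFPneg array. Ciita, which encodes the coactivator, gave 694, 558 and 536 in B6-M- cells, against 2192, 2228 and 2155 in GFPneg cells (3.68-fold, -1.89 ± 0.15, adjusted p = 0.00436). The 3 GFPneg signals of Ciita were nearly equal and every B6-M- signal was far under them. H2-Oa (-1.52 ± 0.19, adjusted p = 0.0147) and H2-Ob (-1.56 ± 0.21, adjusted p = 0.0172), the chains of the H2-M inhibitor, kept their calls only without the first GFPneg array (up to 0.0687 and 0.08 otherwise), and the protease Ctss (-0.91 ± 0.15, adjusted p = 0.0346) lost its call without any 1 array (up to 0.122). The other 9 called class II genes kept theirs in all 6 such refits. The 1 further gene not called was Rfxank, a subunit of the X box binding complex (-0.33, adjusted p = 0.238).

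Of 40 genes of BCR signalling, 10 were called lower, 1 higher and 29 were not called, with a median of -0.35. The adaptor Lat2 (LAB) had the smallest adjusted p of the list, with 882, 772 and 776 in B6-M- cells, against 8213, 8802 and 9372 in GFPneg cells (10.9-fold, -3.44 ± 0.13, adjusted p = 0.00091). Ptpn6 (SHP-1), the phosphatase that CD22 recruits, gave 1681, 1871 and 1534 in B6-M- cells, against 9977, 12362 and 13305 in GFPneg cells (7.01-fold, -2.80 ± 0.17, adjusted p = 0.00222). Plcg2, the phospholipase of the BCR calcium response, gave 4217, 4775 and 4483 in B6-M- cells, against 10609.7, 11607 and 10858 in GFPneg cells (2.45-fold, -1.30 ± 0.12, adjusted p = 0.00663). The replicate spread of all 3 was small against the distance between the groups. The exchange factor Vav1 was lower too (-1.27 ± 0.15, adjusted p = 0.0114), a call lost without the first B6-M- array (adjusted p 0.0517). The member called higher was Pik3cd, the δ catalytic subunit of PI3 kinase, with 12862, 11112 and 16061 in B6-M- cells, against 4623, 5142 and 5852 in GFPneg cells (2.56-fold, 1.35 ± 0.19, adjusted p = 0.0209), which lost its call without any 1 array (up to 0.0875). The kinases Btk (-0.37), Syk (0.22) and Blk (0.41) were not called.

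Of 24 early response genes, which many receptors induce within minutes, 2 were called higher and 1 lower. Besides Myc these were Jun, with 1616, 1563 and 1669.6 in B6-M- cells, against 192, 443 and 87.0 in GFPneg cells (3.05 ± 0.59, adjusted p = 0.0499, kept only without the second GFPneg array and up to 0.153 otherwise), and the phosphatase Dusp2 (-0.84 ± 0.12, adjusted p = 0.0235, up to 0.0969 and lost without any 1 array). Egr1, a gene that BCR signals induce, gave 977, 579 and 521 in B6-M- cells, against 1182, 1143 and 1344 in GFPneg cells, with no overlap and no call (-0.87 ± 0.27, adjusted p = 0.158), although it was called without the first B6-M- array. Of 17 FoxO targets, 5 were called higher, of which Rag1, Rag2, Il7r and Ccnd2 are described above and Irs2 (2.45, adjusted p = 0.0424) is an adaptor of insulin receptors, and 2 lower, Bcl6 and Ikzf1. Among 18 genes of the Bcl2 family and apoptosis, Bcl2l1 (Bcl-xL) was called higher, with 8073, 6755 and 6178 in B6-M- cells, against 3299.9, 3101 and 3869.7 in GFPneg cells (1.03 ± 0.17, adjusted p = 0.0325, up to 0.116 and lost without any 1 array), and Xiap lower (-1.41 ± 0.25, adjusted p = 0.0426, kept only without the first B6-M- array and up to 0.145 otherwise). In each direction this is 5.56% of the list, against 2.65% of all probe sets called higher and 2.4% called lower.

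**Figure D2:**
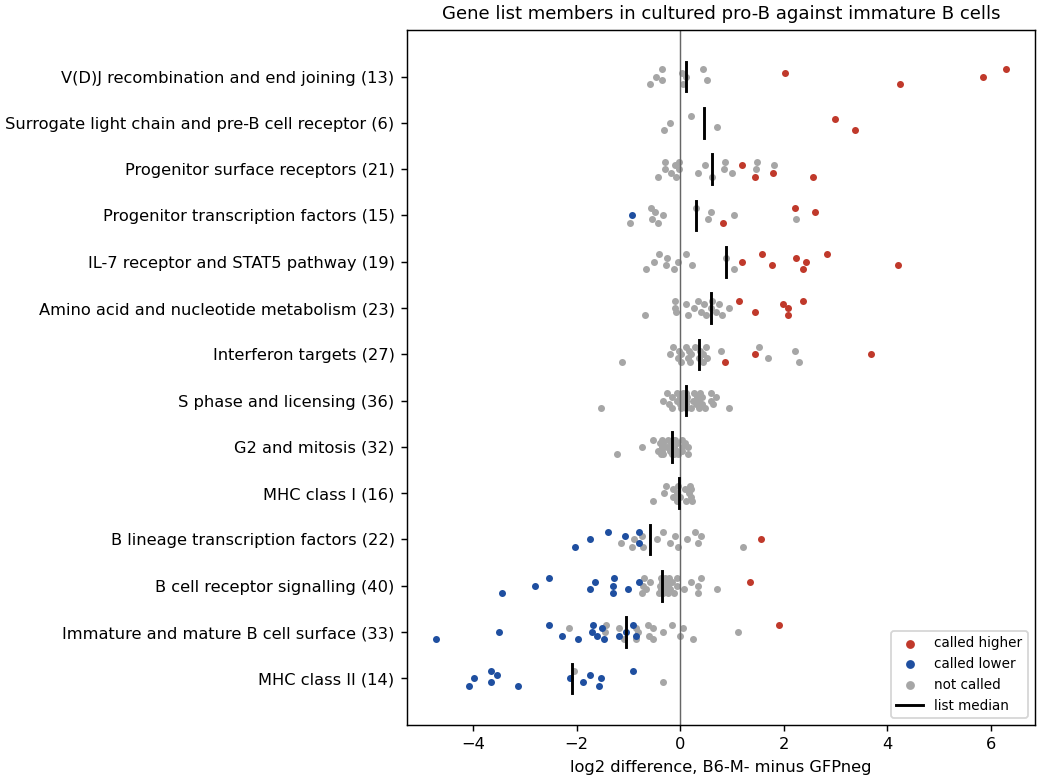
Log2 difference in signal, B6-M- minus GFPneg, of each member of 14 gene lists (number of genes in brackets), with red points called higher, blue points called lower, grey points not called and a black bar at the list's median. The MHC class II list lies furthest to the left with a median of -2.09, the IL-7 receptor and STAT5 list furthest to the right with a median of 0.88, and the cell cycle lists cluster around 0.

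Probe sets for Ig genes moved in both directions. GFPneg cells were sorted for surface IgM and carry 1 prearranged receptor, and B6-M- cells were sorted for its absence, so these values describe the populations and are no independent result. Many of these probe sets, those ending in _f, hold probes shared by members of a gene family, and the gene named is that of the array's annotation. Of 35 heavy chain probe sets 14 were called higher and 4 lower, of 27 kappa chain probe sets 5 were called higher and 1 lower, and the 1 lambda chain probe set was not called. The largest rise among probe sets that match 1 gene was that of Igkv9-120, a kappa variable segment, with 8358, 6053 and 4851 in B6-M- cells, against 21.0, 53.8 and 94.5 in GFPneg cells (114-fold, 7.04 ± 0.58, adjusted p = 0.00498, 5.97 with a floor of 100), while the other 2 probe sets of this segment were not called. The heavy chain variable segment Ighv1-54 gave 12114, 8642 and 6793 in B6-M- cells, against 349.6, 372 and 192 in GFPneg cells (30.2-fold, 4.93 ± 0.35, adjusted p = 0.00329). Igkv14-111 gave 5986, 5626 and 3949 in B6-M- cells, against 280.5, 258 and 265 in GFPneg cells (19.4-fold, 4.25 ± 0.20, adjusted p = 0.00126), and 2 other probe sets assigned to this segment were not called.

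Of the probe sets annotated to the constant region gene Ighg3, 4 family probe sets rose by 5.55 to 6.16 on the log2 scale. With a floor of 100 they rose by 3.67 to 5.25. Whether they read RNA of this gene or of related Ig genes was not tested. In FxD, FxE and Ctrl-Mhi cells the brightest of them averaged 1033, 880 and 2065. The brightest gave 6104, 4624 and 3696 in B6-M- cells, against 47.2, 190.4 and 31.6 in GFPneg cells (6.16 ± 0.70, adjusted p = 0.0109), a call lost without any 1 B6-M- array (adjusted p up to 0.0596), and the others were called in all 6 refits. Of 7 probe sets annotated to Ighg3, 3 were not called. Ighm, the μ heavy chain, had 16 probe sets, of which 6 were called higher and 1 lower. The one called lower, which carries no family suffix, gave 73109, 69879 and 62975 in B6-M- cells, against 111049, 119066 and 103859.9 in GFPneg cells (1.62-fold, -0.70 ± 0.13, adjusted p = 0.0491), so that μ signal was strong in both groups. Among those called higher, the family probe set with the largest difference gave 1987, 1618 and 949 in B6-M- cells, against 35.9, 87.0 and 55.5 in GFPneg cells (4.70 ± 0.43, adjusted p = 0.00603, 3.86 with a floor of 100). The other heavy chain probe sets called lower were 3 assigned to the variable segment Ighv14-2, with log2 differences of -2.36, -2.29 and -2.07. The kappa probe set called lower, Igkv6-23, was bright in both groups, with 47637, 42318 and 46113 in B6-M- cells, against 112417, 126846 and 111935 in GFPneg cells (2.58-fold, -1.37 ± 0.13, adjusted p = 0.0066).

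**Figure D3:**
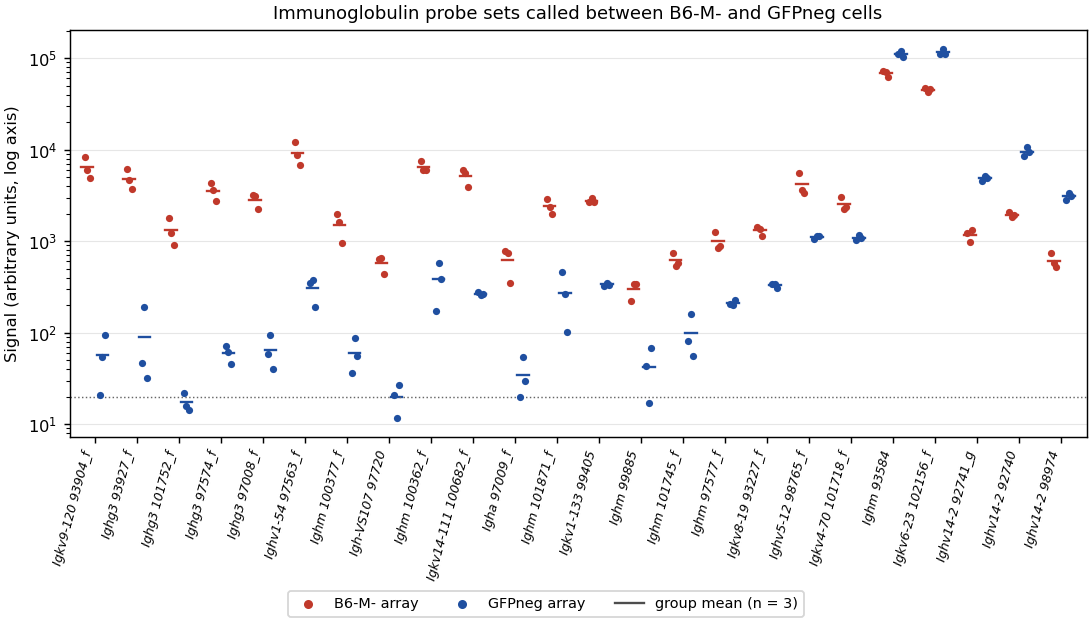
Signal of the 24 Ig probe sets called between the groups and matching 1 gene, in arbitrary units on a log axis, with 1 point per array, a line at the mean of 3 arrays and a dotted line at the floor of 20 units. From left to right the log2 difference falls, and the 5 probe sets at the right, 1 of Ighm, Igkv6-23 and 3 of Ighv14-2, are those lower in red B6-M- arrays than in blue GFPneg arrays.

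The guanylate-binding proteins Gbp2, Gbp3 and Gbp7, GTPases that IFN induces and that act on intracellular pathogens, were higher in B6-M- cells. Gbp7 gave 7888, 9906 and 6710.4 in B6-M- cells, against 520.3, 612 and 602 in GFPneg cells (14.1-fold, 3.81 ± 0.19, adjusted p = 0.00149). Gbp2 gave 4317, 3811 and 3408 in B6-M- cells, against 193, 292 and 471 in GFPneg cells (12.1-fold, 3.68 ± 0.34, adjusted p = 0.0066). Gbp3 gave 6800.4, 7162 and 6459 in B6-M- cells, against 2086, 2241 and 3362 in GFPneg cells (2.66-fold, 1.44 ± 0.22, adjusted p = 0.0249), a call kept only without the third GFPneg array (adjusted p up to 0.105 otherwise). The list of 27 IFN targets, which holds Gbp2 and Gbp3, had 3 members called higher (11.1%, against 2.65% of all probe sets). The one beside Gbp2 and Gbp3 was Irf1 (0.86 ± 0.16, adjusted p = 0.0425, up to 0.142 and lost without any 1 array), and none was called lower. Of the 27, 22 lay above 0 and 5 below (median 0.37), and at an unadjusted p under 0.05 limma gave 7 higher and 1 lower. Iigp1 (2.22), Lgals3bp (1.71), Isg15 (0.78), Irf7 (0.28) and Mx1 (-1.13) were not called.

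The 3 genes lie close together on chromosome 3, and the stretch from -100 to -21 of 1 start of each is shown. The starts are from the same RefSeq table and were picked because they hold GAAA, any 2 bases and GAAA again on 1 of the strands. This is the core of an IFN-stimulated response element. A second start of Gbp3 held no match. The capitals mark its matches, which on the strand shown read TTTC, any 2 bases and TTTC, and overlap each other in Gbp3.
Gbp2 (chr3:142620563-142620642, plus strand): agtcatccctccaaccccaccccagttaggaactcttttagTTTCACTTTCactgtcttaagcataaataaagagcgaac
Gbp3 (chr3:142559944-142560023, plus strand): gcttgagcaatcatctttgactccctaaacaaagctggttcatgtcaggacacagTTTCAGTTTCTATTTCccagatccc
Gbp7 (chr3:142530236-142530315, plus strand): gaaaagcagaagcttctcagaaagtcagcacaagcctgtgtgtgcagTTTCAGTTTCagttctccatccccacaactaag
The matches began at -59 in Gbp2, at -45 and -39 in Gbp3 and at -53 in Gbp7, and 3.44% of all promoters in the table held one. The letters were searched after the values had been seen. A gene was counted if any of its starts held them, while the shares over all are of single promoters. In the same way TTCNNNGAA, the letters of a STAT5 site, was sought in the 8 genes of the IL-7 list that were called, of which 5 had an entry and 3 (Cish, Il7r and Socs3) held it, against 8.3% of all promoters.

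Enzymes of amino acid and nucleotide supply were higher in B6-M- cells where they were called, 6 of 23 and none lower (median 0.59). Srm, spermidine synthase, gave 2318, 3036 and 2852 in B6-M- cells, against 385, 649 and 582 in GFPneg cells (5.08-fold, 2.37 ± 0.25, adjusted p = 0.00865). Impdh1, which commits purines to guanine nucleotides, gave 1927, 1620.1 and 2881 in B6-M- cells, against 491, 502 and 475 in GFPneg cells (4.38-fold, 2.09 ± 0.24, adjusted p = 0.0109). Shmt1, which feeds one-carbon units from serine, gave 1245, 1232 and 1453 in B6-M- cells, against 311, 394 and 295 in GFPneg cells (3.93-fold, 1.98 ± 0.17, adjusted p = 0.00536). In each of these the B6-M- arrays were all above the GFPneg arrays. The others were the branched-chain transaminase Bcat1 (2.08 ± 0.30, adjusted p = 0.0232), the transporter Slc7a5 and the purine enzyme Gart (1.14 ± 0.15, adjusted p = 0.0164). Calls for Srm and Impdh1 were lost without the second B6-M- and the second GFPneg array, with adjusted p 0.0503 for Srm and 0.0531 for Impdh1. Gart kept its call only without the first B6-M- array (up to 0.0789) and Bcat1 only without the first or second GFPneg array (up to 0.0991). Among 18 heat shock genes 3 were called higher (median 0.46): the mitochondrial chaperone Hspa9 (1.48 ± 0.14, adjusted p = 0.00661), Hsph1 (1.02 ± 0.14, adjusted p = 0.0205) and the chaperonin subunit Cct3 (0.81 ± 0.13, adjusted p = 0.0288), and the last 2 lost their calls without any 1 array (up to 0.0866 and 0.108). None of 15 glycolytic genes was called by limma or met the methods' criteria (median 0.44, differences from -0.91 to 1.75), and 5 were higher and 2 lower at an unadjusted p under 0.05.

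Outside the lists, the largest rises among bright probe sets belonged to genes with varied known roles. Reln, a secreted glycoprotein known from neuronal positioning, gave 2559, 2724 and 1161 in B6-M- cells, against 65.6, 43.2 and 20.6 in GFPneg cells (49.8-fold, 5.69 ± 0.54, adjusted p = 0.00663, 4.33 with a floor of 100). Gldc, the glycine decarboxylase of the glycine cleavage system, gave 3302, 5789 and 3517 in B6-M- cells, against 152, 121 and 53.6 in GFPneg cells (38.6-fold, 5.35 ± 0.46, adjusted p = 0.00536). Myl10, a myosin regulatory light chain of precursor lymphocytes, gave 7461, 10205 and 14721 in B6-M- cells, against 340, 326 and 248 in GFPneg cells (35.4-fold, 5.11 ± 0.29, adjusted p = 0.00192). The B6-M- arrays of each exceeded every GFPneg array by an order of magnitude or more. Sema4a, a semaphorin, gave 4164, 4882 and 5259 in B6-M- cells, against 136, 118 and 167 in GFPneg cells (34.1-fold, 5.10 ± 0.19, adjusted p = 0.00091). Prkch, protein kinase Cη, was named for its difference to fresh marrow and not as 1 of the 12 largest rises. Its signals were 1148, 1476 and 1457 in B6-M- cells, against 54.9, 56.8 and 123 in GFPneg cells (17.4-fold, 4.22 ± 0.35, adjusted p = 0.00522). These 5 calls held without any 1 array. Trgv4, a T cell receptor γ variable segment, with 2956, 3471 and 3550.2 in B6-M- cells, against 47.0, 217 and 35.1 in GFPneg cells (5.54 ± 0.70, adjusted p = 0.0147, 4.68 with a floor of 100), was called only without the second or the third GFPneg array (adjusted p up to 0.0739 otherwise). Osbpl1a, an oxysterol-binding protein, with 564, 1157 and 826 in B6-M- cells, against 9.90, 80.6 and 6.50 in GFPneg cells (4.68 ± 0.63, adjusted p = 0.0176, 3.02 with a floor of 100), was called only without the second GFPneg array (up to 0.0832), and its other probe set differed by 0.27 and was not called.

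Among the largest falls beside Ms4a1 and class II were Tulp1, a tubby family protein of photoreceptors, with 114, 91.8 and 70.1 in B6-M- cells, against 2355, 2474 and 3453 in GFPneg cells (30.0-fold, -4.92 ± 0.25, adjusted p = 0.00149), and Srpk3, a kinase of splicing factors, with 288, 349.6 and 384 in B6-M- cells, against 4341, 6252 and 6888 in GFPneg cells (17.1-fold, -4.08 ± 0.23, adjusted p = 0.00192). Slpi, a secreted protease inhibitor, gave 98.5, 111 and 194 in B6-M- cells, against 1591, 1588 and 1612 in GFPneg cells (11.8-fold, -3.63 ± 0.28, adjusted p = 0.00417). Basp1, a membrane-bound signalling protein, gave 352, 235 and 230.4 in B6-M- cells, against 1904, 3732 and 3814 in GFPneg cells (11.6-fold, -3.49 ± 0.34, adjusted p = 0.00731), while its other, brighter probe set differed by -0.62 and was not called. Cmah makes the sialic acid that mouse CD22 binds, and it gave 34.7, 28.7 and 58.5 in B6-M- cells, against 717, 497 and 368 in GFPneg cells (13.0-fold, -3.71 ± 0.37, adjusted p = 0.00742, -2.35 with a floor of 100). All 5 calls held without any 1 array. The largest fall of all was that of the Y-linked gene Eif2s3y, with 65.4, 22.0 and 10.5 in B6-M- cells, against 628, 2165 and 2470.5 in GFPneg cells (-5.61 ± 0.72, adjusted p = 0.0149, -3.91 with a floor of 100), a call lost without the second or the third array of either group (adjusted p up to 0.0739). Xist, the RNA of the inactive X chromosome, gave 2182, 2635 and 4118 in B6-M- cells, against 2092, 215 and 11.5 in GFPneg cells, with no call (3.79 ± 1.66, adjusted p = 0.295). The first GFPneg array had both transcripts, the second and the third had little Xist, and the part of sex in other differences was not tested.

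No gene of the lists of S phase and of mitosis was called between the 2 cultured populations. The 36 genes of S phase and replication licensing had log2 differences from -1.53 to 0.94 (median 0.12) and the 32 genes of G2 and mitosis from -1.21 to 0.16 (median -0.15). None was called by limma or met the methods' criteria, and at an unadjusted p under 0.05 limma gave 4 higher S phase genes and 1 lower mitotic gene. In the list of G1 regulators, with 18 genes, Ccnd2 was called higher and Tob1, an antiproliferative protein, lower (-1.48 ± 0.26, adjusted p = 0.0406, up to 0.14 and lost without any 1 array). Cdkn1a, which encodes the cell cycle inhibitor p21, gave 2148, 2040.5 and 3482 in B6-M- cells, against 1671, 1616 and 1722 in GFPneg cells (0.57 ± 0.24, adjusted p = 0.268).

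To see where the step from pro-B to immature cells in culture differed from the step from pre-B to immature cells in fresh marrow, the same test was run between FxD and FxE arrays, which share no array with the culture, and on the difference between both effects. FxD and FxE RNA went through 2 rounds of amplification, unlike that of the cultured cells. The FxD gate holds pre-B cells, and the B6-M- gate (B220+ IgM-negative) does not exclude them. Between FxD and FxE cells 299 probe sets (3%) were called, 174 higher (1.74%) and 125 lower (1.25%) in FxD cells. Of the 264 probe sets higher in B6-M- cells, 183 (69.3%) had a higher mean in FxD than in FxE cells, against 53.7% of all probe sets, and 34 were called higher there, which is 12.9% of the culture list and 19.5% of the marrow list. Of the 239 lower in B6-M- cells, 200 (83.7%) were lower in FxD cells, against 46.3% of all, and 55 were called, which is 23% of the culture list and 44% of the marrow list. In the opposite direction, 11 of the 264 were called lower in FxD cells and none of the 239 was called higher. The test of the difference itself called 256 probe sets (2.57%), 124 with a positive (1.24%) and 132 with a negative value (1.32%), 78 of them among the 264 and 20 among the 239.

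Of all lists, that of G2 and mitosis had the highest share of called differences between culture and marrow. In FxD cells 18 of 36 S phase genes (median 1.65) and 26 of 32 genes of G2 and mitosis (median 2.47) were called higher than in FxE cells, and the difference between culture and marrow was called for 14 and 26 of them. Kif4, a mitotic chromosome motor, gave 1646, 1882 and 2256 in B6-M- cells, against 3073, 2207 and 2018 in GFPneg cells (-0.32), whereas in marrow it gave 2933, 3001 and 2606 in FxD cells and 348, 429 and 278 in FxE cells (3.04), a difference of -3.36 ± 0.34 (adjusted p = 0.00106). Racgap1, a regulator of cytokinesis, behaved alike, with a log2 difference of -0.43 in culture and 2.57 in marrow (adjusted p of the difference = 0.00107).

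Of the 19 genes of the IL-7 and STAT5 list the difference between culture and marrow was called for 3, Myc, Ccnd2 and Il7r, against 2.57% of all probe sets. Myc was higher in B6-M- than in GFPneg cells but gave 17.8, 10.3 and 61.8 in FxD cells and 258, 342 and 125 in FxE cells (-2.93, adjusted p = 0.0677), so that the effects differed by 7.14 ± 0.74 (adjusted p = 0.00112), a size that depends on the floor, under which 2 FxD arrays lay (4.06 with a floor of 100). Ccnd2 gave 66.6, 25.0 and 36.6 in FxD cells and 379, 401 and 359.7 in FxE cells (-3.27, adjusted p = 0.0184), a difference of 5.51 ± 0.53 (adjusted p = 0.000951, 4.16 with a floor of 100). Both genes thus had opposite signs in culture and in marrow. Il7r went the same way in both but further in marrow, with 11174, 17207 and 8213 in FxD cells and 585, 659 and 729 in FxE cells (4.15, difference -2.97 ± 0.39, adjusted p = 0.00274). Gbp2 (-1.84 in marrow, difference 5.52 ± 0.70, adjusted p = 0.00235) and Gbp7 (0.09 in marrow, difference 3.72 ± 0.37, adjusted p = 0.00106) were called higher in culture and not called in marrow, and the difference between the effects was called for both.

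Of the recombination genes, Rag1 and Rag2 had no called difference between the settings, with 5.85 in culture and 6.08 in marrow for Rag1 (difference -0.24 ± 0.44, adjusted p = 0.895) and 4.26 and 5.50 for Rag2 (difference -1.24 ± 0.84, adjusted p = 0.625). The culture values are those of a gate on absence of the Rag2 reporter in GFPneg cells. Dntt had a called difference: it gave 336, 594 and 303 in FxD cells and 205, 52.9 and 179.9 in FxE cells (1.65), a difference of 4.65 ± 0.68 (adjusted p = 0.0055). Vpreb1 (3.93 in marrow, difference -0.56 ± 0.44) and Igll1 (2.89 in marrow, difference 0.10 ± 0.47) had no called difference (adjusted p = 0.682 and 0.965).

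In class II, 8 of 14 genes were called lower in FxD cells (median -1.87), and the difference was called for 4: H2-Aa (-1.97 ± 0.37, adjusted p = 0.0201), H2-DMb2 (-1.79 ± 0.37, adjusted p = 0.0307), Ciita (-1.48 ± 0.25, adjusted p = 0.0122) and H2-Eb2 (-4.64 ± 0.53, adjusted p = 0.00176). The first 3 had the lower value in culture, and H2-Eb2 lay around the floor in FxD and FxE cells, with 29.0, 7.70 and 63.9 in FxD cells and 17.7, 19.8 and 23.8 in FxE cells, so that its contrast depends on the floor (-1.87 with a floor of 100). Ciita gave 610.2, 504 and 544 in FxD cells and 789.8, 713 and 689.5 in FxE cells (-0.40, adjusted p = 0.518), a step without a call. Of the 33 surface molecules 11 were called lower in FxD cells (median -1.43). Cxcr5 gave 61.1, 45.1 and 276 in FxD cells and 2882, 2241 and 2687 in FxE cells (-4.83, adjusted p = 0.0237), against overlapping levels in culture, a difference of 5.08 ± 0.76 (adjusted p = 0.00641, 4.46 with a floor of 100). Ms4a1 was called lower in both, with -3.85 in marrow (adjusted p = 0.0107) at the probe set that had -4.73 in culture. Tulp1, with 1.14 in marrow, had the most negative called difference of the genes named here (-6.05 ± 0.71, adjusted p = 0.00176).

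**Figure D4:**
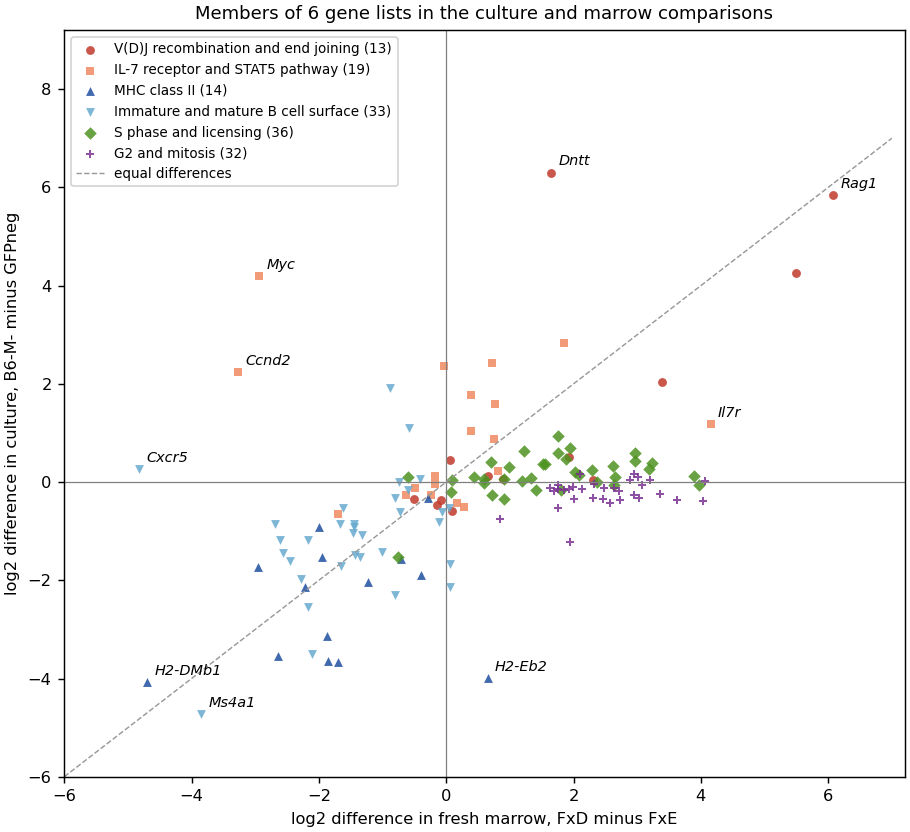
Log2 difference in culture (B6-M- minus GFPneg, vertical) against that in fresh marrow (FxD minus FxE, horizontal) for the members of 6 gene lists, with 1 point per gene and the number of genes in brackets, and a dashed line where both differences are equal. Genes of S phase and mitosis spread to the right at heights near 0, most class II and surface genes lie in the lower left, and Myc and Ccnd2 lie in the upper left.

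Set against Ctrl-Mhi, the other cultured immature population, B6-M- cells differed at 1417 probe sets (14.2%), 689 higher (6.91%) and 728 lower (7.3%). This comparison uses the same B6-M- arrays, so its values stand only beside the others. Between Ctrl-Mhi and GFPneg cells, the 2 immature references, 569 probe sets were called (5.7%), 283 higher (2.84%) and 286 lower (2.87%) in Ctrl-Mhi cells. The fit behind this count also held the B6-M- arrays, so it is not on a par with the counts of the other comparisons. Rag1 averaged 13619 in B6-M- cells, 237 in GFPneg cells, 2329.6 in Ctrl-Mhi cells and 243 in fresh FxE cells. Neither Ctrl-Mhi nor FxE cells were sorted on a Rag reporter, and the cause of this spread was not tested. The log2 difference of Rag1 was 5.85 against GFPneg and 2.58 against Ctrl-Mhi (adjusted p = 0.00134). For Dntt the means were 15163 in B6-M- cells, 192 in GFPneg cells and 109.9 in Ctrl-Mhi cells, with 6.30 against GFPneg and 7.27 against Ctrl-Mhi (adjusted p = 0.000319). Socs1 averaged 6189.5 in B6-M- cells, 856 in GFPneg cells and 4445 in Ctrl-Mhi cells, so that its difference against Ctrl-Mhi was 0.48 and not called (adjusted p = 0.224), while Ctrl-Mhi cells, which had met IFN, exceeded GFPneg cells by 2.35 (adjusted p = 0.000266).

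H2-Eb1 and Ms4a1 were called lower in B6-M- cells against both references. H2-Eb1 averaged 2362 in B6-M- cells, 27608 in GFPneg cells and 29037 in Ctrl-Mhi cells, and Ms4a1 averaged 2054 in B6-M- cells, 52846 in GFPneg cells and 58343 in Ctrl-Mhi cells. Against Ctrl-Mhi 13 of 14 class II genes were called lower (median -2.12), and H2-Ea was the gene that moved between references, at 17287 in Ctrl-Mhi cells (-8.49, adjusted p = 0.000313). Of 33 surface molecules 22 were called lower and 1 higher (median -1.28), and Fcer2a differed by -3.90 (adjusted p = 0.00511) against Ctrl-Mhi. In the IFN list 17 of 27 genes were called lower and 3 higher than in the IFN-treated Ctrl-Mhi cells (median -1.92), while Gbp2 (1.86, adjusted p = 0.00112) and Gbp7 (2.67, adjusted p = 0.00142) remained higher in B6-M- cells. S phase genes were higher against Ctrl-Mhi in 26 of 36 cases and lower in 1 (median 1.70). Tulp1 differed by -0.44 and was not called against Ctrl-Mhi (adjusted p = 0.477), whereas GFPneg cells stood above Ctrl-Mhi cells (-4.47 for Ctrl-Mhi minus GFPneg, adjusted p = 0.000136).

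Markers of other cells that a sort from marrow could hold were looked up in the same way. At its brightest probe set none of 14 T cell, 12 NK cell or 19 stromal genes was called by limma or met the methods' criteria, and at an unadjusted p under 0.05 there were 3, 1 and 2 of them. Dimmer probe sets of 2 stromal genes were called: that of Igfbp4, a binding protein of insulin-like growth factors, gave 677, 769 and 935 in B6-M- cells, against 49.7, 100.2 and 76.1 in GFPneg cells (3.44 ± 0.30, adjusted p = 0.00539), beside 1.19 and -0.68 at its other probe sets, and that of the collagen gene Col3a1 was lower (-1.35 ± 0.23, adjusted p = 0.0346). Summed over the list, T cell signals lay between 6326 and 8170 on B6-M- arrays, against 7150 to 7513 on GFPneg arrays, and NK cell signals between 868 and 1320 on B6-M- arrays, against 949 to 1564 on GFPneg arrays. Stromal signals lay between 3419 and 4652 on B6-M- arrays, against 3324 to 4104 on GFPneg arrays, and the sum of 25 myeloid genes between 9853 and 12690 on B6-M- arrays, against 13220 to 13890 on GFPneg arrays. The myeloid sums did not overlap, and neither did those of 12 erythroid genes (18980 to 23580 on B6-M- arrays, against 13300 to 15780 on GFPneg arrays) or 7 dendritic cell genes (21290 to 26250 on B6-M- arrays, against 38750 to 48270 on GFPneg arrays). Most of the dendritic cell sums came from Cst3 and from Irf8, which is also in the list of B lineage factors. Irf8 averaged 9949.9 in B6-M- and 21045.4 in GFPneg cells, and Cst3 averaged 12017.8 and 20605.7. Itgax, Ccr9, Clec4a2 and Xcr1 overlapped between the groups. In the myeloid list, Cybb averaged 765.6 in B6-M- and 2394.7 in GFPneg cells. Whether the sums reflect the content of such cells was not tested. No member of any of these lists was at the floor on all 6 arrays. Cd3e, which defines T cells, gave 122, 67.5 and 77.3 in B6-M- cells, against 89.4, 97.9 and 72.1 in GFPneg cells, and the myeloid granule gene Mpo gave 98.4, 168 and 192 in B6-M- cells, against 143, 245 and 177 in GFPneg cells. The 1 myeloid gene called, Cybb, an oxidase subunit that B cells also express, was lower (-1.65 ± 0.14, adjusted p = 0.00539), and Irf8, described above, was the 1 of 7 dendritic cell genes called. Of 12 erythroid genes Car2, carbonic anhydrase 2, was higher, with 5544, 6882 and 7992 in B6-M- cells, against 1872, 1236 and 1349.7 in GFPneg cells (2.20 ± 0.23, adjusted p = 0.00889, lost at 0.0524 without the second B6-M- array), and Slc4a1 lower (-0.80 ± 0.15, adjusted p = 0.0454, up to 0.124 and lost without any 1 array), while the globin gene Hba-a1 gave 458, 422 and 382 in B6-M- cells, against 468, 358 and 246 in GFPneg cells. The mast cell protease Cma1 was the 1 of 15 mast cell and basophil genes called, with 232, 178 and 168 in B6-M- cells, against 35.8, 31.0 and 44.6 in GFPneg cells (2.38 ± 0.21, adjusted p = 0.00583, 0.93 with a floor of 100), while its other probe sets differed by 0.67 and -0.08 and were not called, and the mast cell marker Cpa3 gave 11.1, 17.8 and 112 in B6-M- cells, against 75.3, 22.1 and 7.10 in GFPneg cells. The part of such cells in the other results was not tested.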

How the data were processed

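Per the labels and methods, RNA of sorted cells was labelled and hybridized to Affymetrix U74Av2 arrays. The authors deposited 1 linear signal intensity per probe set, computed with Microarray Suite 5.0, after a mask for faulty probe sets of the earlier array version and scaling of each array to 1500 units. Detection p-values and scan dates were not used here, and the number of arrays limits the precision. Signals were raised to a floor of 20, logged to base 2 and compared by limma's moderated linear model (version 3.58.1, R 4.3.3, two-sided) on the 3 B6-M- and 3 GFPneg arrays, with all 9977 probe sets adjusted together. B6-M- and Ctrl-Mhi arrays, and FxD and FxE arrays, were fitted likewise. Ctrl-Mhi and GFPneg cells were compared in a fit that also held the B6-M- arrays. A contrast over 12 arrays tested the difference between the culture and the marrow effects. The platform annotation gave 8724 probe sets 1 gene, 346 several and 907 none, and only the first were named. A gene in a list was read from its brightest probe set.

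The members and lists were chosen with earlier results of these data known, and counts of list members are descriptions. Genes were named by rule: a fixed set of stage markers, the 12 largest rises and falls with a mean of at least 500 units in the higher group, the 6 list members of smallest adjusted p, the 10 smallest adjusted p of the culture and marrow difference, and the 4 largest changes in each Ig locus. Some list members outside this rule are given for context and were chosen after their values were seen. Promoter stretches came from a RefSeq table that runs from 250 bases before to 50 after each start, of assembly GRCm38.p6. The fit was tested on simulated data. Alternatives were floors of 1 and 100, quantile normalization, a filter on mean signal, all 37 arrays in 1 fit, a trended prior variance, the replicate number as a block, the methods' t-test and leaving out each array.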

Additional observations from a re-analysis of the deposited data

Results flagged for a closer look

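In 41 probe sets named here, the B6-M- minus GFPneg difference in culture departed from the FxD minus FxE difference in fresh marrow by limma's contrast over 12 arrays (3 in each group). Each value below is the culture difference minus the marrow difference on the log2 scale. FxD and FxE RNA went through 2 rounds of amplification, and the part of this in the values was not tested.

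Among progenitor and growth genes the contrast was 7.14 for Myc, 5.51 for Ccnd2, 4.65 for Dntt, 1.84 for Lef1, 2.43 for Srm and 4.42 for Prkch. All 6 were called higher in culture. In marrow Ccnd2 was called lower and the other 5 were not called. It was -2.97 for Il7r and -1.35 for Xrcc6, which were called higher in both, and -3.36 for Kif4 and -3.004 for Racgap1, which were called higher in marrow and not called in culture.

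Among surface and class II genes it was 5.08 for Cxcr5, called lower in marrow and not called in culture, 2.80 for Cd9, -1.97 for 1 of the 2 Ms4a1 probe sets, -1.49 for Itgb7, -1.97 for H2-Aa, -1.79 for H2-DMb2, -4.64 for H2-Eb2 and -1.48 for Ciita. The IFN-induced genes Gbp2 and Gbp7 differed by 5.52 and 3.72, and Slfn2, of the schlafen family, by 3.26. Slfn2 gave 21116, 16812 and 12317 in B6-M- cells, against 4237, 5299.6 and 4693 in GFPneg cells (log2 difference 1.79, adjusted p = 0.016), and its FxD minus FxE difference was -1.47 (adjusted p = 0.0375).

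Other named genes were Gldc (4.86), Sema4a (4.72), Myl10 (3.71), Reln (2.99), Car2 (2.08) and Cma1 (3.18), all 6 called higher in B6-M- cells and of which only Reln was called in marrow (higher in FxD cells), and Tulp1 (-6.05) and Cmah (-3.64), called lower in B6-M- cells and not called in marrow.

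Ig probe sets made up the rest, with 5.75, 6.01, 5.66 and 6.26 for the 4 of Ighg3, 4.69 for Ighm, 5.25 for Ighv1-54, 5.58 for Igkv1-133, 4.49 for Igkv14-111, 3.61 for Igkv4-70, 4.05 for Igkv6-14, 4.46 for Igkv8-19 and 7.12 for Igkv9-120. Igkv1-133 gave 2689, 2963 and 2689 in B6-M- cells, against 324, 352 and 334 in GFPneg cells, and 1225, 1282 and 2262 in FxD cells against 12079.6, 6614 and 8607 in FxE cells, so that the groups were apart in opposite directions, both called.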

How the results depend on the processing

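No call between B6-M- and GFPneg cells and no named value changed sign under the alternatives, while 15 of the calls against Ctrl-Mhi did with a floor of 100. Between B6-M- and GFPneg cells, 503 probe sets were called (264 higher, 239 lower). The count became 813 (419 higher, 394 lower) among the 6569 probe sets with a mean signal of at least 200, 806 (419 and 387) with a prior variance that follows the mean signal, 214 (116 and 98) by the methods' criteria, of which 184 were shared with limma, and 9 (2 and 7) by the methods' t-test after Benjamini-Hochberg adjustment. It stayed within 1.5 times of 503 with a floor of 100 (700) or 1 (423), quantile normalization (514) and all 37 arrays in 1 fit (496). Leaving out 1 array gave 166 to 282 calls (85 to 159 higher, 81 to 123 lower). With the replicate number as a block, 21 were called (15 higher, 6 lower, 71.4% higher against 52.5% without the block) and 27 of 116 named log2 differences kept their side of the threshold. The block also leaves fewer degrees of freedom. The deviations of same-numbered arrays correlated at 0.0281, -0.0283 and -0.0121, and the second B6-M- array correlated best with the third GFPneg array (0.0963). The sources used here do not say whether same-numbered arrays are paired, and these correlations cannot settle it.

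Against Ctrl-Mhi the 1417 calls (689 higher, 728 lower) became 137 (57 and 80) with the replicate block over numbers 1 to 3, and 737 to 1232 (333 to 635 higher, 404 to 613 lower) without 1 array. The difference between culture and marrow, called at 256 probe sets (124 higher, 132 lower), had 213 higher calls of 374 with a floor of 100, and 140 to 266 calls (71 to 133 higher, 69 to 144 lower) without 1 array. Of the 116 named differences in culture, 12 lost their call with all 37 arrays in 1 fit, 4 with a floor of 1, 2 with a floor of 100 and 29 to 44 without 1 array. Of the 41 called differences between culture and marrow, 2 were lost under quantile normalization, 1 with a floor of 100 and 4 to 11 without 1 array.

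Signals near the floor carry little: in 5 probe sets called lower, all B6-M- arrays lay at or under it, and with a floor of 100 the culture difference moved by over 1.5 times for 15 of 116 named probe sets. These were H2-Eb2 (-1.87), Cma1 (0.93), Cmah (-2.35), Eif2s3y (-3.91), Myc (2.90), Osbpl1a (3.02), Reln (4.33), Trgv4 (4.68), Xist (3.01), Igkv9-120 (5.97), 1 of Ighm (3.86) and 4 of Ighg3 (3.67 to 5.25). Osbpl1a moved to 5.55 with a floor of 1. The culture and marrow contrast moved likewise for 15 of 41, among them Myc (4.06), H2-Eb2 (-1.87) and Reln, whose call was lost (1.63, adjusted p = 0.0729). Ig probe sets can bind transcripts of related segments. The p-values measure the spread among 3 arrays from 2 or 3 sorts.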
